A study of Drosophila melanogaster with 42 samples.

Results

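The genes described here are the odorant-binding protein (Obp), odorant receptor (Or), gustatory receptor (Gr) and ionotropic receptor (Ir) genes of Drosophila melanogaster. They were chosen by name, as every gene with a spot of its own whose symbol starts with one of these prefixes and a digit. There were 136 of them among 9905 genes with a spot of their own: 31 Obp, 48 Or, 21 Gr and 36 Ir genes. RefSeq's table for the assembly Release 6 plus ISO1 MT holds 51, 60, 60 and 66 genes of these names, so the arrays measured part of each family. The odorant co-receptor Orco and the odorant-binding protein lush are outside the rule because of their names and are described apart.

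Flies smell with sensory neurons in the hairs of the antenna and the maxillary palp and taste with hairs on the proboscis, the legs and the wings. Or proteins form odour-gated channels with the co-receptor Orco, Gr proteins mostly detect sugars, bitter compounds and carbon dioxide, and Ir proteins, relatives of glutamate receptors, detect acids, amines, salts and other tastants together with co-receptors such as Ir25a and Ir76b. Obp proteins are small secreted carriers made by the support cells around these neurons, and some Obp genes are also expressed elsewhere, including the male reproductive tract.

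RNA came from the dissected heads and thoraces of male flies at 8 ages between day 5 and day 80, namely days 5 and 10, every 10 days from day 20 to day 50, and days 70 and 80. The Indy206 flies carried 1 copy of the Indy206 allele over a Canton-S chromosome (Indy206/CS), and the controls were matched heterozygotes (2216/CS) with the same Canton-S partner. Indy encodes a citrate transporter. Each genotype was thus a single line crossed to Canton-S, each replicate pooled 15 males, and no females were measured. There were 42 two-colour arrays, 21 per genotype, with 2 or 3 in each of the 16 groups of 1 genotype at 1 age.

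Every value is a level, the log2 ratio of a sample to a common reference pooled from control flies of all ages, so a level above 0 means more transcript than in the reference. Levels of different genes do not show which gene is more abundant. The reading of the values as sample over reference on a base of 2 is likely but not stated in the labels or notes used, and the sign of every difference below rests on it. Array medians lay between -0.014 and 0.0019. The control day 20 replicate 2 and control day 30 replicate 1 arrays stood farthest from their own groups, with mean correlations of 0.76 and 0.77, and the call of a member that is lost without them is named with its result. The Indy transcript was lower on every Indy206 array than on every control array, with a highest Indy206 level of -0.67 and a lowest control level of -0.49. Replicates are separate pools of flies, and the p-values measure differences against the spread between such pools. Whether a spot shone above background was not analysed here, which matters most for receptor genes, whose transcripts are confined to few neurons.

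The families differed little from the reference on average. The median level was 0.095 in the Obp family, 0.089 in the Or family, 0.036 in the Gr family and 0.034 in the Ir family, against -0.0053 over all genes with a spot of their own. Levels above 0 were found for 23 of 31 Obp, 38 of 48 Or, 12 of 21 Gr and 23 of 36 Ir genes. The median standard deviation over the 42 arrays was 0.26 in the Obp family, 0.17 in the Or family, 0.19 in the Gr family and 0.17 in the Ir family, against 0.21 over all genes.

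Obp57c, from a gene cluster known for roles in taste, had the highest mean level of the Obp family, 0.82, with single arrays between 0.15 and 1.57. Obp56g, which encodes a seminal fluid protein, had the lowest at -2.56, and its arrays ran from -3.46 to -1.33. Each thus lay on 1 side of the reference on all arrays. In the Or family Or43b, an antennal receptor for fruit esters, was highest at 0.40 and Or59b, the antennal receptor for methyl acetate, lowest at -0.35. Gr5a, the trehalose receptor, had the highest mean of the Gr family at 0.39, and the sugar receptor gene Gr61a the lowest at -1.14. In the Ir family Ir75a, the acetic acid receptor, stood highest at 0.41 and Ir75d lowest at -0.93.

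The spread over arrays was widest for Obp99b (SD 0.68), Or98a (0.53), Gr61a (0.54) and Ir67b (0.55), and narrowest for Obp47b (0.12), Or33c (0.11), Gr66a (0.12) and Ir21a (0.12). For Or98a 1 array carried most of it: control day 30 replicate 3 stood at -2.80, and the other arrays of that group at 0.19 and 0.43. Obp69a, an antennal Obp, was similar, with control day 70 replicate 2 at -3.35 and its companions at 0.075 and 0.52. Or13a, a receptor for octenol, had 1 high array, Indy206 day 30 replicate 1, at 2.00 beside 0.036 and 0.41.

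All 7 measured members of a list of 9 abundant antennal Obp genes had mean levels between 0.34 and 0.70. Orco stood at 0.33 and lush at 0.36. Not all genes of the smell organs lay above the reference: the 10 measured antennal Ir genes had a median level of 0.065, from -0.93 to 0.41. Whether the reference was made from the same dissected parts as the samples is not stated.

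With age, 45 members fell and 3 rose. The measure is the slope of the group means on day, in log2 units per 10 days and averaged over the genotypes, called at a limma adjusted p under 0.05 over all 19077 units tested (genes and spots without a single gene). The falling members are 33.1% of 136, where 15.1% of all units and 21.9% of all genes with a spot of their own were called lower. The background for a rise was 10.1% of units and 15.6% of genes. In these bulk samples, fewer cells of a type and less RNA per cell cannot be told apart.

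With all ages and no covariate, falls were called in every family, in unequal shares. They took in 6 Obp, 17 Or, 8 Gr and 14 Ir genes, while 2 Obp genes and 1 Gr gene rose and no Or or Ir gene did. The falls were 19.4% of the Obp, 35.4% of the Or, 38.1% of the Gr and 38.9% of the Ir genes. The Obp share thus lay below the 21.9% of all genes with a spot of their own and above the 15.1% of units. Slopes were below 0 for 113 of the 136 members, with 22 of 31 Obp, 44 of 48 Or, 16 of 21 Gr and 31 of 36 Ir genes. The median slope was -0.013 for Obp, -0.022 for Or, -0.022 for Gr and -0.019 for Ir genes, against -0.0074 over all genes with a spot of their own. These changes were small: the median slope of the falling members was -0.032, and their slopes ran from -0.16 to -0.019. All 45 falls and 3 rises had the same sign in both genotypes. No member had all 8 arrays of days 5 and 10 apart from all 12 arrays of days 70 and 80. That pattern was seen in 1.14% of units and 1.88% of genes in the falling direction and in 1.57% and 2.48% in the rising direction. For the narrower separations of ages or genotypes given below for single genes, the share of all genes was not counted.

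**Figure D1:**
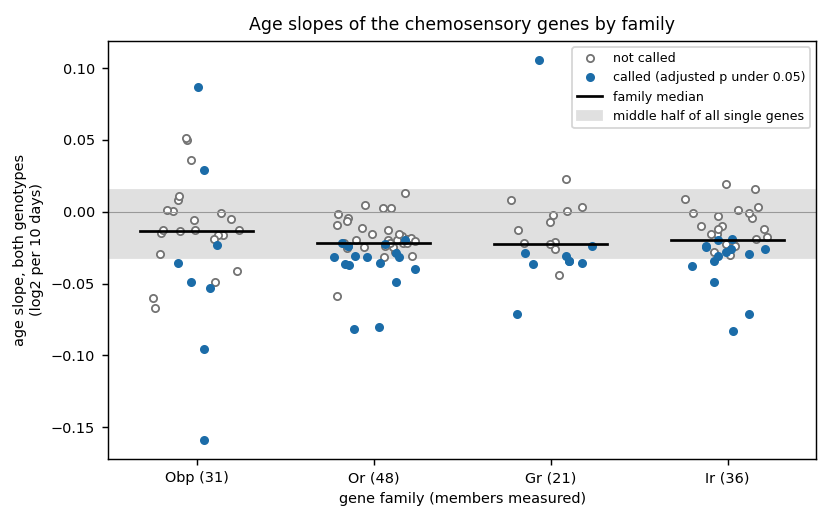
The age slope of each of the 136 members is plotted by family, in log2 units per 10 days, with called members marked. Most points lie a little below 0, Gr5a and Obp56d stand out above and Obp56g below.

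The members that fell did so beside marker genes of other tissues, whose part in the result was not tested. Of the midgut enzyme genes, 10 of 16 measured fell with age, as did 5 of 11 accessory gland genes, 2 of 4 testis genes and 5 of 9 muscle genes, with 2 muscle genes rising. The array median of the testis list ranged from -3.20 to -0.53 at days 5 and 10 and from -3.68 to -1.45 at days 70 and 80. That of the muscle list ran from 0.040 to 1.46 at the young ages and from -0.032 to 0.28 at the old ages. Of 3 measured fat body genes, Lsp2 fell at -0.51 per 10 days, and the fat body median ran from -0.083 to 0.63 at the young ages and from -0.67 to 0.070 at the old ages. None of the 5 measured neuronal genes and 1 of 6 photoreceptor genes (Arr1) changed. Among 5 measured genes of the smell organs outside the 4 families, a10, an antennal carrier gene, fell at -0.063 per 10 days, and the array median of that list lay between 0.31 and 0.75 at the young ages and between -0.022 and 0.50 at the old ages.

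With a covariate made from the testis and accessory gland markers, 11 members fell and 1 rose. With the photoreceptor minus muscle median as a covariate, 9 fell and 4 rose, namely Gr5a, Obp56d, Obp56a and Obp99d. Without the day 5 arrays 13 fell and 2 rose, with a median slope of -0.020 over the members and of -0.0030 over all units. Under the testis and accessory gland covariate these medians were -0.012 and 0.00010. Under the photoreceptor minus muscle covariate they were -0.020 and -0.0033. With all ages and no covariate they were -0.021 and -0.0031. The share of all units called lower was 4.89% under each covariate and 7.48% without day 5. The falling members were 8.09% and 6.62% of the members under the covariates and 9.56% without day 5. Shares of genes with a spot of their own were not computed for these settings. No Gr gene fell under any of these 3 settings. The Ir falls numbered 0 and 1 under the covariates and 3 without day 5. The Obp falls numbered 3, 3 and 2 in that order, and the Or falls 8, 5 and 8. Gr5a, Obp56g, Obp8a, Or22b, Or42b, Or71a and Or85f are the 7 members called under all 3 of these settings.

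**Figure D2:**
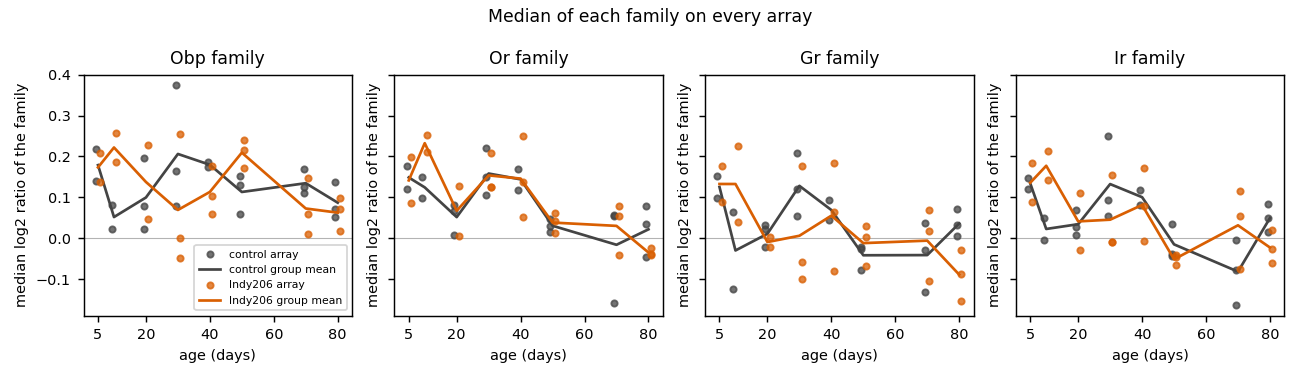
The median level of each family on each array is plotted against age, with 1 point per array in each genotype and lines through the group means. The Or medians of days 5 and 10 lie between 0.085 and 0.25 and those of days 70 and 80 between -0.16 and 0.078.

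The Or family median did not follow an even course over life. In control flies its group mean went from 0.15 on day 5 to 0.052 on day 20, back to 0.16 on day 30, and to 0.030 on day 50 and 0.022 on day 80. In Indy206 flies the day 5 mean was 0.14, the day 10 mean 0.23, the day 20 mean 0.067, the day 30 mean 0.15, the day 50 mean 0.038 and the day 80 mean -0.035. The dip at day 20 and the return at day 30 thus appeared in both genotypes. The interquartile ranges of all values on an array were 0.19 to 0.26 at day 20 and 0.27 to 0.36 at day 30. The testis marker median was -1.06 in control and -1.21 in Indy206 flies at day 20, and -2.66 and -3.05 at day 30. The part of these array features in the dip was not tested. The Or medians of the young and old arrays did not overlap. Those of the other families did: Obp medians ran from 0.022 to 0.26 at the young ages and from 0.011 to 0.17 at the old ages, Gr medians from -0.12 to 0.23 and from -0.15 to 0.071, and Ir medians from -0.0043 to 0.21 and from -0.16 to 0.11. These medians carry no test here.

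Of the 3 measured seminal fluid Obp genes 2 fell. Obp8a stood at 0.14 and 0.38 on the control arrays of day 5 and at -0.88, -0.45 and -0.65 on those of day 80. The Indy206 arrays gave 0.21 and -0.01 at day 5 and -0.44, -0.30 and -0.82 at day 80. In each genotype the day 80 arrays lay below the day 5 arrays. Over both genotypes Obp8a fell at -0.095 ± 0.013 (SE) per 10 days, to 0.61 of its starting level between day 5 and day 80 (limma adjusted p = 1.3e-06). Its slope was -0.10 in control and -0.090 in Indy206 flies.

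Obp56g had the steepest slope of all members, -0.159 ± 0.017 (SE) per 10 days (limma adjusted p = 3.5e-08). On control arrays it read -1.61 and -1.44 on day 5, then -3.27 and -2.36 on day 10, then -1.84, -1.36 and -2.12 on day 20, then -3.06, -2.26 and -2.80 on day 30. Indy206 flies gave -1.33 and -1.64, then -2.12 and -1.67, then -1.59 and -2.10, and finally -3.16, -2.82 and -3.03 on the same days. Levels were high at days 5 and 20 and low from day 30 on. At day 10 the group mean was low in control flies, at -2.82, but -1.90 in Indy206 flies. A straight line thus describes this course only roughly. The call was lost after quantile normalization, with a slope of -0.036 (adjusted p = 0.41). The remaining measured gene of the seminal list of 7, Obp56e, had a slope of 0.036 that was not called (limma adjusted p = 0.19).

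Of the 7 abundant antennal Obp genes 1 fell and 1 rose. Obp28a, which binds floral odours, had levels of 0.66 to 1.16 with a median of 0.93 at days 5 and 10, and of 0.13 to 0.88 with a median of 0.63 at days 70 and 80. It fell at -0.049 ± 0.014 (SE) per 10 days (limma adjusted p = 0.010), and its 2 spots gave slopes of -0.055 and -0.043. Obp56d rose at 0.087 ± 0.026 (SE) per 10 days, 1.57-fold between day 5 and day 80 (limma adjusted p = 0.012). Its young arrays lay between -0.26 and 1.31 with a median of 0.06, and its old arrays between 0.39 and 1.13 with a median of 0.80. The only young array within the range of the old ones or above it was control day 10 replicate 1, at 1.31. The slopes of Obp19a, Obp19d, Obp59a, Obp69a and Obp84a ran from -0.060 to 0.0081 and were not called. Neither was that of lush, at -0.027 (limma adjusted p = 0.14).

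The other Obp genes called were Obp58c at -0.053, Obp58b at -0.035, Obp47b at -0.023 and Obp19c. Obp58b lost the call in 9 of 42 single-array exclusions and Obp47b in 3. Obp19c rose at 0.029 per 10 days (limma adjusted p = 0.010). Obp19c lies on the X chromosome beside Obp19a, Obp19b and Obp19d, whose slopes of 0.00077, -0.017 and -0.015 were not called. Of the Obp99 genes on 3R, Obp99b stood at -0.067, Obp99c at -0.049, Obp99d at 0.052 and Obp99a at -0.00077, and none was called.

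**Figure D3:**
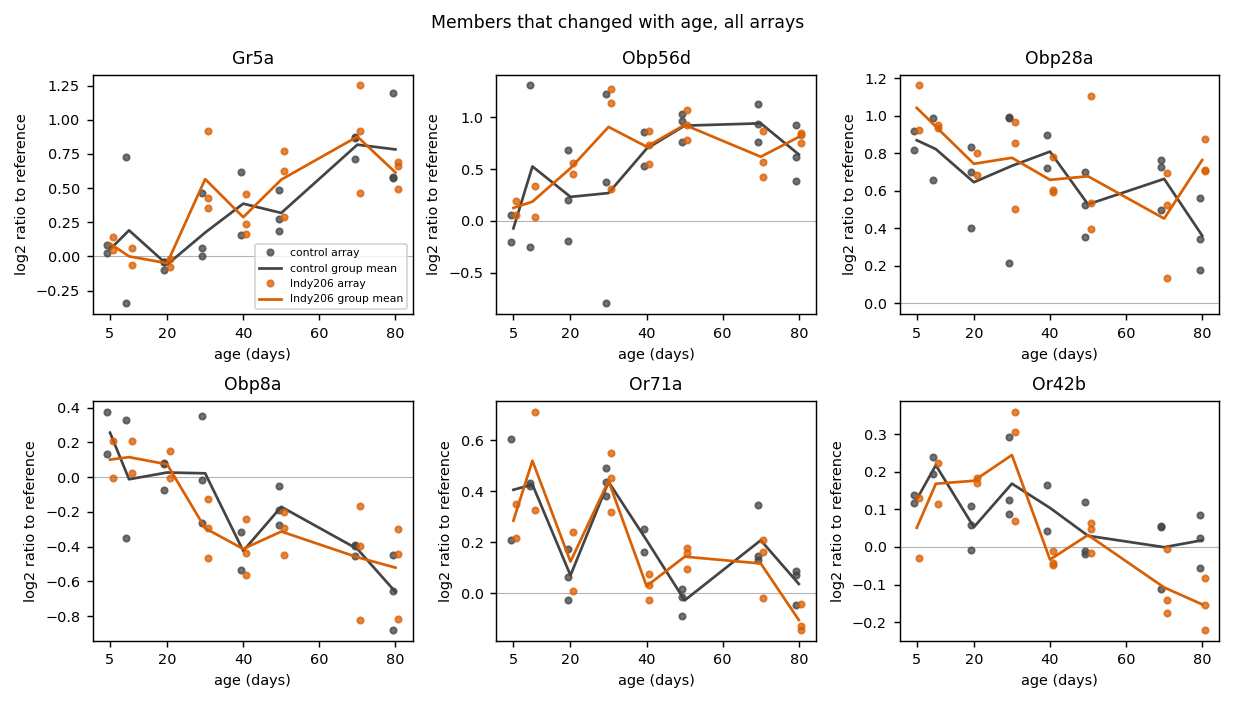
Levels of Gr5a, Obp56d, Obp28a, Obp8a, Or71a and Or42b are plotted against age, with 1 point per array, coloured by genotype, and lines through the group means. Gr5a and Obp56d rise and the others fall, in both genotypes.

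Of the 7 palp receptors, all of them measured, 3 fell and none rose. Or71a, which responds to plant phenols such as ethylguaiacol, was measured in control flies at 0.60 and 0.21 on day 5, then 0.42 and 0.43 on day 10, with 0.34, 0.15 and 0.13 for day 70 and 0.09, 0.07 and -0.05 for day 80. The Indy206 arrays gave 0.35 and 0.22, then 0.71 and 0.33, then 0.21, -0.02 and 0.16, then -0.14, -0.04 and -0.13 on those days. Among these arrays, all at day 80 lay below all at days 5 and 10, a pattern not counted over all genes. Or71a fell at -0.049 ± 0.0073 (SE) per 10 days, to 0.78 of its starting level (limma adjusted p = 6.5e-06), and overlaps the centrosomal gene Plp in the annotation.

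Or59c fell at -0.081 ± 0.015 (SE) per 10 days (limma adjusted p = 0.00013). Its young levels ran from -0.45 to 0.30 and its old levels from -1.0 to -0.13. Or46a, a receptor for phenols, fell at -0.020 (limma adjusted p = 0.028). The slopes of Or33c, Or42a, Or85d and Or85e were -0.012, -0.017, -0.024 and 0.0023 and were not called.

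Among the antennal receptors, Or42b, which detects the esters of fermenting fruit and drives attraction to vinegar, fell at -0.031 ± 0.0062 (SE) per 10 days (limma adjusted p = 0.00011). In control flies it stood at 0.12 and 0.14 on day 5 and at 0.02, 0.09 and -0.06 on day 80. In Indy206 flies the day 5 arrays gave 0.13 and -0.03 and the day 80 arrays -0.15, -0.22 and -0.08. The day 80 arrays lay below the day 5 arrays in each genotype. Or92a, the diacetyl receptor, fell at -0.032 (limma adjusted p = 0.0015) and Or59b at -0.082 ± 0.019 (SE) (limma adjusted p = 0.0020). Or59b and Or59c are neighbours that overlap the same gene, CG43795, and whether the spot of one also measures the other was not tested.

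The other called Or genes all fell. They included Or56a, the geosmin receptor, at -0.031, Or67d, the receptor of the male pheromone cis-vaccenyl acetate, at -0.028, and the adjacent fruit ester receptor genes Or22a and Or22b at -0.024 and -0.023. Or85f and Or49a, which serve the detection of parasitoid wasps in the same neurons, fell at -0.040 and -0.022. The rest were Or33a at -0.037, Or67c at -0.037, Or74a at -0.035, Or94a at -0.032 and Or9a at -0.024. The 31 Or genes not called had slopes up to 0.013, that of Or85a. Orco, which every Or neuron of the antenna and palp uses, had a slope of -0.018 ± 0.010 (SE) that was not called (limma adjusted p = 0.21). The call of Or94a was lost without the 2 arrays that stand apart, as were those of Or22a and Or9a. Of the 42 single-array exclusions, 21 lost the call of Or22a, 20 that of Or94a and 12 that of Or9a. For Or49a, Or46a and Or22b 8, 5 and 4 did. The call of Or22a was also lost with the replicate number as a block.

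Taste receptors went both ways within the sugar group. Gr5a rose at 0.106 ± 0.016 (SE) per 10 days, 1.73-fold between day 5 and day 80 (limma adjusted p = 7.3e-06), the steepest rise of all members. Control flies started with 0.02 and 0.08 on day 5 and with 0.73 and -0.34 on day 10, and ended with 0.88, 0.86 and 0.71 on day 70 and with 1.20, 0.58 and 0.57 on day 80. Indy206 flies started with 0.14 and 0.05, then 0.06 and -0.06, and ended with 1.25, 0.46 and 0.92, then 0.66, 0.49 and 0.69. All arrays of days 70 and 80 lay above all young arrays except control day 10 replicate 1. Without that array the slope was 0.12. An antisense RNA gene, asRNA:CR44958, overlaps Gr5a, and the labels do not say whether the spot tells the strands apart.

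The other measured genes of the sugar list of 9 were Gr43a, the fructose receptor, Gr64d and Gr61a. Gr43a fell at -0.024 (limma adjusted p = 0.0079) and Gr64d at -0.031 (limma adjusted p = 0.0090). Gr43a had levels of -0.12 to 0.31 at the young ages and -0.41 to 0.04 at the old ages, and Gr64d of 0.04 to 0.38 and -0.31 to 0.24. Gr61a had a slope of -0.044 that was not called (limma adjusted p = 0.31). Gr64d overlaps Gr64e in the annotation and Gr43a overlaps Dhx15.

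No gene of the carbon dioxide or bitter receptor lists was called. The carbon dioxide receptors Gr21a and Gr63a had slopes of -0.013 and 0.023. The bitter receptor genes Gr32a, Gr33a, Gr66a and Gr89a, 4 measured of 6 listed, had slopes from -0.022 to 0.0036. For Gr66a, a marker of bitter neurons, the 95% confidence interval of the slope ran from -0.019 to 0.015. The other falling Gr genes were Gr98a at -0.071, Gr23a at -0.036, Gr10b at -0.036, Gr47a at -0.034, Gr58c at -0.034 and Gr57a at -0.029. Gr23a was not called after quantile normalization (limma adjusted p = 0.055). It lost the call in 9 of 42 single-array exclusions, Gr57a in 7 and Gr47a and Gr58c in 2 each.

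In the Ir family neither measured co-receptor was called, with slopes of 0.0088 for Ir25a and -0.019 for Ir76b. Of 10 measured antennal Ir genes, from a list of 14, 2 fell: Ir75d at -0.071 (limma adjusted p = 0.043) and Ir64a, an acid sensor, at -0.019 (limma adjusted p = 0.034). Both calls were lost after quantile normalization (adjusted p = 0.19 and 0.14). That of Ir64a was also lost with arrays scaled to a common spread, with the replicate number as a block and without any of 9 single arrays. That of Ir75d was lost without any of 13. The other 8, among them the acetic acid receptor Ir75a at 0.0032 and the cool receptor Ir21a at -0.0029, were not called. The other called Ir genes also fell. Ir7c, known for the taste of concentrated salt, fell at -0.049 ± 0.012 (SE) (limma adjusted p = 0.0029), Ir56d, of fatty acid and carbonation taste, at -0.034 (limma adjusted p = 0.0035), and Ir56b, of low salt taste, at -0.031. The levels of Ir7c ran from -0.31 to 0.11 at the young ages and from -0.84 to -0.01 at the old ages.

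The further Ir genes that fell were Ir67b at -0.083, Ir60e at -0.038, Ir48b at -0.030, Ir7b at -0.028, Ir67a at -0.026, Ir11a at -0.026, Ir7g at -0.025, Ir7a at -0.024 and Ir48c at -0.020. Ir75d and Ir7a lost the call without the 2 arrays that stand apart. Ir7a also lost it in 28 of 42 single-array exclusions, Ir11a in 11, Ir48c in 5, Ir67a in 3 and Ir60e in 1. Several of these genes overlap others that a spot may also measure: Ir75d overlaps Prp6 and COX6AL2, Ir60e overlaps Brca2, Ir48c overlaps ths and Gr47a overlaps SLO2.

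Slopes were also set side by side for neighbouring genes, as a description with no test. Of 23 pairs of adjacent members, 17 had both slopes below 0, 4 had slopes of opposite sign and 4 had both genes called, namely Or22a with Or22b, Or56a with Obp56g, Obp58b with Obp58c and Or59b with Or59c. Over all 136 members, 113 slopes were below 0 and 48 were called, and pairs that are not neighbours were not counted. Members of a family also varied together only weakly from array to array within groups. The median correlation between 2 genes of a family, computed on deviations from the group means over 42 arrays, was 0.081 in the Obp, 0.11 in the Or, 0.15 in the Gr and 0.14 in the Ir family, against 0.015 over all genes, and these points share arrays.

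Other chemosensory genes were taken from a list of 50, of which 25 were measured. Of these 6 fell, namely a10, Jhedup, CheA7a, CheA75a, CheB38c and Arr1, with slopes from -0.12 to -0.062. Of these, a10 and Arr1 are also on the marker lists above. The shares called lower were 15.1% of all units and 21.9% of genes, and those called higher 10.1% and 15.6%. Snmp2, a relative of the pheromone co-receptor Snmp1, rose at 0.061 ± 0.011 (SE) per 10 days (limma adjusted p = 9.9e-05).

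Some members followed the testis and accessory gland marker lists from array to array. The relation was computed for the 12 members with the largest spread against 4 marker lists, 48 relations in all, with two-sided permutation tests of 100000 resamples. The lists were those of the testis, accessory gland, midgut and smell organs. Gr98a correlated with the testis median at r = 0.83 and rho = 0.80, and at r = 0.82 without the 2 arrays farthest from its median. Ir67b gave r = 0.83 and rho = 0.81 (r = 0.83 without the 2 arrays), Ir75d r = 0.81 and rho = 0.84 (r = 0.79), Obp56g r = 0.83 and rho = 0.74 (r = 0.80) and Gr61a r = 0.71 and rho = 0.68 (r = 0.68). For each the permutation p was 1e-05, the smallest these resamples can give, and 5.3e-05 after Benjamini-Hochberg adjustment.

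The relation held within groups as well, where age and genotype are constant. On deviations from the group means r with the testis median was 0.58 for Gr98a, 0.65 for Ir67b, 0.79 for Ir75d, 0.56 for Obp56g and 0.71 for Gr61a. For the same genes it ran from 0.53 to 0.75 with the accessory gland median. With the midgut median it ran from -0.29 to -0.00017, and from 0.26 to 0.60 on the levels themselves. With the smell organ median it ran from -0.38 to 0.37 on deviations. The larval receptor gene Or45a went the other way against the testis median, at r = -0.50 and rho = -0.47. Without the 2 arrays r was -0.51, and on deviations it was -0.57. The permutation p of r over all arrays was 0.00087 (0.0035 adjusted). The testis and accessory gland lists lay below 0 on all 42 arrays, at medians of -3.68 to -0.48 and -4.29 to -1.50, and 4 of 10 and 11 of 14 of their genes were measured. The part of these markers in the age slopes of Gr98a, Ir67b, Ir75d and Obp56g was not tested beyond the covariate, under which only Obp56g of these 4 remained called and the slope of Ir75d turned to 0.032.

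**Figure D4:**
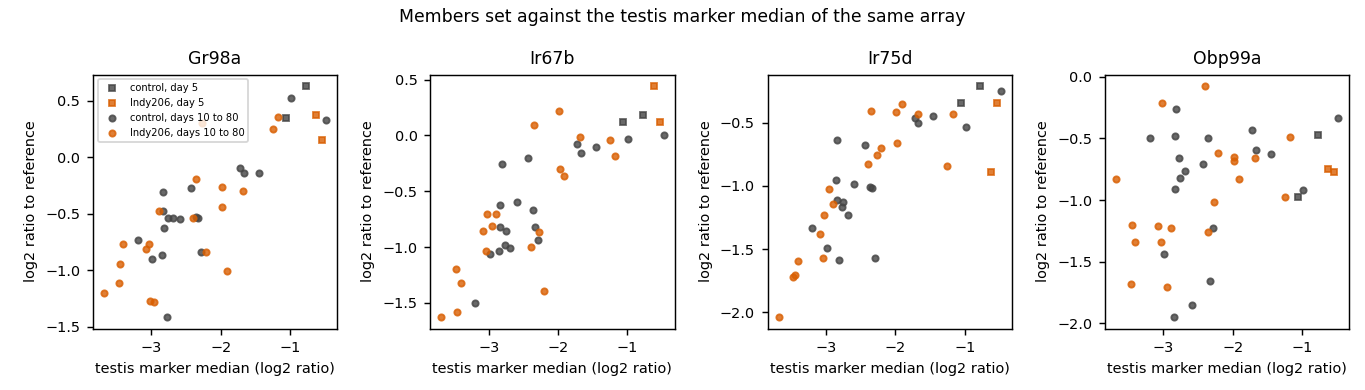
Levels of Gr98a, Ir67b, Ir75d and Obp99a are plotted against the median log2 ratio of the testis marker genes on the same array, with 1 point per array. The first 3 genes rise along the marker median, with r between 0.81 and 0.83.

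A step between the youngest ages was tested apart from the slope. From day 5 to day 10, 3 members fell and 1 rose, where 2.84% of all units and 4.49% of genes were called lower and 0.833% and 1.16% higher. Gr98a stood at 0.34 and 0.63 in control and 0.37 and 0.15 in Indy206 flies at day 5, and at -0.74 and -0.53 and at -1.28 and -0.44 at day 10. The ages did not overlap, and the difference was -1.12 ± 0.23 (SE; limma adjusted p = 0.0072). Ir67b fell by 0.95 ± 0.26 (SE) and Obp56g by 0.85 ± 0.20 (SE). Over the same step the testis marker median went from -0.92 to -2.98 in control and from -0.58 to -2.47 in Indy206 flies. By day 20 it stood at -1.06 and -1.21. The day 20 group means of Gr98a were 0.25 in control and 0.30 in Indy206 flies, so its fall was not held. Those of Ir67b were -0.034 and -0.11, and those of Obp56g -1.78 and -1.84. The part of the testis marker median in these falls was not tested beyond the covariate, under which no member was called.

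Or47a, a receptor for fruit acetates, was the member that rose. Its arrays of both genotypes lay between 0.13 and 0.25 at day 5 and between 0.40 and 0.73 at day 10, and did not overlap. The rise was 0.40 ± 0.11 (SE; limma adjusted p = 0.034), and it was not called after quantile normalization. Obp56g was not called for this step after quantile normalization or with arrays scaled to a common spread. Obp56a, at 0.89 for this step and not called (limma adjusted p = 0.075), was called higher under both of these settings, with array weights, with the photoreceptor minus muscle covariate and without the 2 arrays that stand apart, at values from 0.89 to 1.70. The step rests on 8 arrays: without Indy206 day 10 replicate 1 none of the 4 calls was made, and 1 or 2 were made without Indy206 day 5 replicate 1 or 2, control day 5 replicate 1 or 3 or control day 10 replicate 1.

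Within each genotype alone, 7 members had a called slope in control flies and 27 in Indy206 flies. The shares of all units called in either direction were 8.68% and 19.4%, and those of genes 13.1% and 29.6%. A difference between the slopes themselves was not detected. No member and 0% of units were called for the difference in slope by limma, and 10 members had an unadjusted p under 0.05, as 5.58% of units and 6.42% of genes did. The smallest p was that of Obp56g, with slopes of -0.10 in control and -0.22 in Indy206 flies, a difference of -0.11 ± 0.035 (SE; limma adjusted p = 0.83). The slope was lower in Indy206 than in control flies for 89 of the 136 members (65.4%), and for 53.6% of all units and 56.5% of genes. The counts within a genotype moved with single arrays. In control flies 3 members were called without control day 5 replicate 1, 4 without control day 5 replicate 3 or day 70 replicate 1, 13 without day 70 replicate 3 and 12 without day 80 replicate 2. In Indy206 flies 15 were called without Indy206 day 5 replicate 1 or day 10 replicate 2 and 16 without day 80 replicate 3. The Gr falls over both genotypes dropped to 4 without Indy206 day 10 replicate 2 and to 5 without control day 5 replicate 3, and the Ir falls to 8 without Indy206 day 5 replicate 1 and to 9 without control day 5 replicate 3.

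Between the genotypes, averaged over the 8 ages, no member was called by limma, where 0.351% of all units and 0.505% of genes were. At an unadjusted p under 0.05 there were 4 members, against 6.59% of units and 8.06% of genes. All 95% confidence intervals of the members' differences lay between -0.45 and 0.63, so larger shifts than these were not seen for any of the 136 genes.

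**Figure D5:**
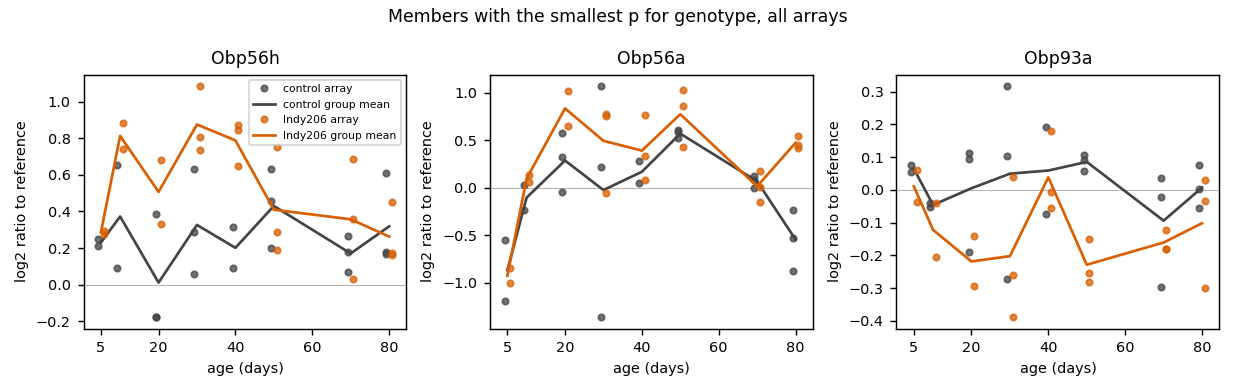
Levels of Obp56h, Obp56a and Obp93a are plotted by age for control and Indy206 flies, with 1 point per array and lines through the group means. Obp56h and Obp56a lie higher in Indy206 flies at 6 of 8 ages and Obp93a lies lower at all 8, and none of these differences was called.

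Obp56h, known for effects on male mating and cuticular hydrocarbons, had the smallest p. Its 21 control arrays ran from -0.18 to 0.66 with a median of 0.21, and its 21 Indy206 arrays from 0.03 to 1.09 with a median of 0.65. The genotypes overlapped. The difference was 0.28 ± 0.071 (SE), or 1.21-fold, with a 95% confidence interval of 0.13 to 0.43, and it was higher in Indy206 at 6 of 8 ages (limma adjusted p = 0.096). It was called with array quality weights (adjusted p = 0.026), when control day 10 replicate 1 was left out (0.031) or control day 20 replicate 3 was (0.045). Without control day 10 replicate 1 Or85a was called as well, at 0.21 (limma adjusted p = 0.0098), a gene named after its values were seen. The array of its group that was then left, control day 10 replicate 2, stood at -1.87 for Or85a, and the other 41 arrays between -0.19 and 0.37.

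Obp56a, in the same cluster on 2R, stood at -1.0 and -0.85 on the Indy206 and at -0.55 and -1.18 on the control arrays of day 5, its lowest age in both genotypes. At day 80 the Indy206 arrays stood at 0.55, 0.45 and 0.42 and the control arrays at -0.87, -0.53 and -0.23, without overlap. Over all ages Obp56a differed by 0.32 ± 0.13 (SE; limma adjusted p = 0.57) and Obp93a by -0.14 ± 0.047 (SE; limma adjusted p = 0.38). Obp47a followed at -0.12. In the other families the smallest p-values belonged to Or22a at 0.095, Or42a, Or49a and Or47b between 0.062 and 0.090, to Gr68a at -0.10, Gr32a, Gr59e and Gr10b between -0.084 and 0.079, and to Ir100a at -0.11, Ir87a, Ir94h and Ir11a between -0.086 and 0.059. The lowest limma adjusted p in these 3 families was 0.72, that of Or22a.

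At single ages no member was called in 1088 tests, 136 at each of 8 ages, where 0.038% of tests over all units and 0.0442% over genes were. An unadjusted limma p under 0.05 was found in 72 of the 1088 tests, and in 5.3% of tests over units and 5.52% over genes. The smallest adjusted p was that of Gr8a, a receptor for the plant toxin canavanine, at day 30. Its Indy206 arrays stood at -0.05, -0.34 and -0.07 and its control arrays at 0.60, 0.57 and 0.26, without overlap, and the difference was -0.63 ± 0.13 (SE; limma adjusted p = 0.061). Gr8a was called at day 30 when any of 8 arrays was left out, with adjusted p-values from 0.0091 to 0.048, and with Indy206 day 30 replicate 3 or control day 30 replicate 3 among them. Leaving out single arrays also gave calls for Ir7g, Gr10b and Obp69a at day 70, Or85a at day 10 and Or85c at day 80, genes named after their values were seen. Each of these calls came when an array of the same age was left out, and that of Obp69a left the array at -3.35 beside 1 other in its group.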

How the data were processed

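The authors deposited 1 log ratio per spot and array, read here as log2, made with limma (no version stated), per the submitters' processing notes. Per the labels' protocols, RNA was extracted with Trizol from replicates of 15 males and amplified in 1 round with T7 polymerase, with the sample in Cy5 and the reference in Cy3 and no dye swap listed. The sources used here do not state the background correction, normalization, filters, log base or direction, and no further normalization was applied. Depth does not apply to arrays, and precision is limited by the 2 or 3 arrays in a group.

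Of 20000 spots, 10828 had 1 gene in the platform annotation, 227 several and 8945 none paired. The 2 spots that name such a gene among several were not used. The 136 members came from 137 spots, and all were matched to RefSeq's gene table by gene ID. Spots of 1 gene were averaged and the others kept as single units, 19077 in all. A model with 16 group means and 26 residual degrees of freedom was fitted over the 42 arrays in R 4.3.3 (lmFit and eBayes, limma 3.58.1). P-values were adjusted by Benjamini-Hochberg over all units in each contrast, and a call is an adjusted p under 0.05. The fit was tested on simulated data. Correlations used numpy 2.4.6 and figures matplotlib 3.10.9.

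The members and gene lists were chosen with earlier results of these data known, and the lists were taken from textbook knowledge. Named are the members called in the age slope, the genotype difference, a single age or the difference in slope, up to 4 members per family with the smallest p for genotype, the extremes of level and spread in each family, and the role lists. Alternatives covered normalization, scaling, averaging of spots, units tested, array weights, robust variance, the replicate number, 2 covariates, the ages used, a minimum size, each age fitted alone and each array left out. The exclusion of the 2 arrays that stand apart was chosen after seeing the data. Genes overlapping another were taken from the Release 6 table, and 45 of the members overlap one.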

Additional observations from a re-analysis of the deposited data

How the results depend on the processing

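Array numbers limit all counts: groups held 2 or 3 arrays, and a group cut to 1 array was assumed to vary like the others. The main counts were 48 members with a called age slope (45 fell, 3 rose), 7 in control and 27 in Indy206 flies, 0 for the slope difference, 0 for genotype, 0 at single ages and 4 between days 5 and 10. Gr5a, Obp8a, Or42b and Or71a were called under all 42 single-array exclusions and 11 other settings without a minimum size, and 29 of the 48 under all 42 exclusions. The testis and accessory gland covariate left 12 called slopes (11 fell, 1 rose), 4 in control and 6 in Indy206 flies and 0 between days 5 and 10. It turned the slopes of Ir75d, Or33a and Or94a to 0.032, 0.0013 and 0.00071, none of them called, and the cause was not tested. The photoreceptor minus muscle covariate left 13 (9 fell), with 4 and 14 by genotype and 1 between days 5 and 10. Without day 5 there were 15 (13 fell), 4 in control and 13 in Indy206 flies, and without day 80 29 fell and 4 were called in control flies, in fits with fewer arrays. Counting only slopes of at least 0.1 left Obp56g and Gr5a (2 slopes, 1 fell and 1 rose), with 3 and 4 by genotype, and only differences of at least 0.5 changed no other count by over 1.5 times. Quantile normalization gave 12 in control flies, and array weights gave 43 in Indy206 flies, 1 genotype call (Obp56h) and 1 at a single age (Obp47a at day 40). With single arrays left out the called slopes ranged from 33 to 54 (30 to 51 fell, 3 to 4 rose), from 3 to 13 in control and from 15 to 35 in Indy206 flies. The slope difference then ranged from 0 to 1 calls (Or85a without control day 10 replicate 1), genotype from 0 to 2, single ages from 0 to 3 and days 5 to 10 from 0 to 5. The main fit did not pair arrays by replicate number. Of 19 pairs of the same age and number, 13 correlated over 0.1, with a range of -0.35 to 0.62. With the replicate number as a block 49 slopes were called (46 fell, 3 rose), 6 in control and 24 in Indy206 flies, 0 for the slope difference, genotype and single ages and 4 between days 5 and 10.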
